A study of Mus musculus with 50 samples.

Results

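The 10 genes described here are imprinted growth genes, which are H19, Dlk1, Meg3, Peg3, Mest, Plagl1, Cdkn1c, Peg10, Ndn and Sgce. They were taken by gene name from a table of 37701 genes, each name matched 1 entry, and all 10 genes were among the 16733 genes whose mean expression over the tumors reached 0.5 RPKM (reads scaled by gene length and library size). The table covers 50 mammary gland tumors, 1 RNA sequencing library each, from 5 treatment groups of 10 tumors. All mice were females of the p53R270H/+WAPCre line, in which a Cre recombinase under the control of the Wap promoter, active in mammary epithelium, switches on a heterozygous R270H mutant p53, so every group carried the same tumor-driving mutation. From an age of 8 weeks the animals received subcutaneous injections every other day of vehicle, insulin, the long-acting insulin analogue glargine, the insulin analogue X10, which is known for its raised affinity for the IGF1 receptor, or insulin-like growth factor 1 (IGF1). A tumor was collected 24 h after the last injection, once it had reached 1 cm3, so the age at collection is not fixed by the protocol and is not in the labels. The study took for sequencing tumors of a mesenchymal (EMT-like) type whose latency lay near the median of their treatment group, so the 50 tumors are a choice from all that arose. The controls are titled untreated in the sample names and described as vehicle-injected in the design, and they are called vehicle here. A tumor is named by its sample name, so Untreated_161 is a tumor of the vehicle group, and IFG1_132, whose name is taken as a misspelling, is one of the IGF1 group.

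Imprinted genes are read mainly from the copy inherited from 1 parent. A control region that often serves several neighboring genes carries DNA methylation on only the maternal or only the paternal copy, and depending on the gene the methylated copy is the silent or the active one. Many of them regulate fetal growth, are read strongly in the embryo and placenta and are turned down after birth. H19, Meg3 and Cdkn1c are mainly read from the maternal copy, and Dlk1, Peg3, Mest, Plagl1, Peg10, Ndn and Sgce from the paternal copy. The measurements are total RNA levels per gene in whole tumor pieces. They do not separate the 2 parental copies, and fewer cells of a type and less RNA per cell cannot be told apart.

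In GRCm38, the build named for these files, the 10 genes lie in 7 places on 4 chromosomes. Sgce (chr6:4674350-4747207, minus strand) and Peg10 (chr6:4747306-4760517, plus strand) stand head to head with 99 bases between their start sites. Mest lies elsewhere on the same chromosome (chr6:30723547-30748465). Dlk1 (chr12:109452823-109463336) and Meg3 (chr12:109541001-109571726) are neighbors 77.7 kb apart. H19 (chr7:142575529-142578143) lies 72.6 kb from Igf2 and 880.2 kb from Cdkn1c (chr7:143458339-143461050). Peg3 (chr7:6703892-6730431) and Ndn (chr7:62346569-62350262) lie apart from these on the same chromosome, and Plagl1 is on another (chr10:13060504-13131694).

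Promoter sequences from RefSeq, build GRCm38.p6, running from 250 bases before a start site to 50 bases after it, were matched for 6 of the 10 genes, namely Dlk1, Meg3, Mest, Ndn, Peg3 and Plagl1. The 4 shown are from Meg3, Mest, Plagl1 and Peg3, whose levels, like those of Dlk1 and Ndn, are compared with those of other members further on. CG dinucleotides, the sites of DNA methylation, are in capitals. The sequences are given 5′ to 3′ on the strand of the gene.
Meg3 promoter, chr12:109540746-109541045, plus strand: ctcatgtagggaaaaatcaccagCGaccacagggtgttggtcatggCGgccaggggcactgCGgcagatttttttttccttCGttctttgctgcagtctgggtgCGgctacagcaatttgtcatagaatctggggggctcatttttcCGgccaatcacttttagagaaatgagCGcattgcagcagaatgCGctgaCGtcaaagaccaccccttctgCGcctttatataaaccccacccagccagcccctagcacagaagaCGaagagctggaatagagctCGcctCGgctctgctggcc
Mest promoter, chr6:30737800-30738099, plus strand: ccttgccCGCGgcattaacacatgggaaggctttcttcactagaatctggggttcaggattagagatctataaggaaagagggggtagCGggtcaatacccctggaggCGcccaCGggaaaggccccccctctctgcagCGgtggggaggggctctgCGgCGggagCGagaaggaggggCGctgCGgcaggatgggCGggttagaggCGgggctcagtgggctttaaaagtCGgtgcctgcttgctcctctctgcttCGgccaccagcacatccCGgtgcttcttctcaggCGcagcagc
Plagl1 promoter, chr10:13090582-13090881, plus strand: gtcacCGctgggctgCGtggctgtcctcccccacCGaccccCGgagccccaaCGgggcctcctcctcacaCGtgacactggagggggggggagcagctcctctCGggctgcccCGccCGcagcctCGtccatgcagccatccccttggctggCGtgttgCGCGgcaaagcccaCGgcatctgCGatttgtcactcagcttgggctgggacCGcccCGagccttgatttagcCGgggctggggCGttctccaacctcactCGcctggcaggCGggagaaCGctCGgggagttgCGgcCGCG
Peg3 promoter, chr7:6730370-6730669, minus strand: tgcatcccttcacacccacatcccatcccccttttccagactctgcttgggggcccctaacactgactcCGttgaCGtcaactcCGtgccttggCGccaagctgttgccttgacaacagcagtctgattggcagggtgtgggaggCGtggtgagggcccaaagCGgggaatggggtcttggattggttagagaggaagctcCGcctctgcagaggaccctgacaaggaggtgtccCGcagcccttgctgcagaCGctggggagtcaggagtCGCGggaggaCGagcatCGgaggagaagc

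The Plagl1 window held 26 CG dinucleotides, the Mest window 17, and the Meg3 and Peg3 windows 13 each, against a median of 7 over all 32851 promoter windows in the table. Fewer CG dinucleotides were found in 83.1% of all windows than in that of Plagl1, in 68.6% than in that of Mest and in 62.1% than in those of Meg3 and Peg3. The Dlk1 and Ndn windows held 9 and 11. A second Meg3 window, at an internal start site, held 1, and another Mest window held 8. PLAGL1 is a zinc finger factor known to bind the letters GGGGCCCC, which read the same on both strands. These letters occurred in 1.08% of all windows and in 1 of the 9 windows found for the members, which was that of Peg3, where the capitals do not mark them.

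Mest, H19 and Meg3 are also hosts of microRNAs. The mature 5p forms from RefSeq are shown with the seed, bases 2 to 8, in capitals, because the seeds differ and the microRNA entries of the table can be set beside their hosts.
miR-335-5p, within Mest: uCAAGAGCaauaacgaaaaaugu
miR-675-5p, within H19: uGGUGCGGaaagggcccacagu
miR-770-5p, within Meg3: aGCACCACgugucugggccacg
Mir675 and Mir770 were listed at 0 in 50 of 50 tumors, and Mir335 was listed at 0 in 46 and reached 0.306 RPKM in X10_107. The libraries were made from poly(A)-selected RNA, so these entries do not measure the mature microRNAs.

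The library sizes recovered from the RPKM steps were 26.6 M to 51.9 M reads, with a median of 40.9 M. Behind the median tumor stood 164 reads for Cdkn1c, 178 for Dlk1, 226 for Ndn, 248 for Plagl1, 378 for Peg3, 599 for Sgce, 1419 for Meg3, 2711 for H19 and 3613 for Mest. The number of reads could not be recovered for Peg10. The label of a mammary tumor was checked against cell type markers. The summed level of 11 epithelial markers ranged from 12.6 to 7140 RPKM with a median of 307 RPKM, and that of 10 mesenchymal markers from 2930 to 32800 RPKM with a median of 13500 RPKM, so collagen and other mesenchymal transcripts exceeded epithelial ones in the typical tumor. No marker tested was at 0 in all tumors. Untreated_161 stood apart for these genes. It had the lowest level of all 50 tumors for 6 of the 10 members and the highest for Peg10, and its mean z-score over the mesenchymal markers was -1.67 against 0.89 for the epithelial ones. These scores were not particular to it, since Untreated_182 had -1.62 and 1.74. Where leaving out Untreated_161 ended a call, this is stated beside the result.

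The non-coding RNAs H19 and Meg3 and the hydrolase-like gene Mest were the most abundant members. H19 is a maternally read long RNA next to the growth factor gene Igf2. Over the 50 tumors H19 ran from 1.16 RPKM (insulin_26) to 4840 RPKM (glargine_62), with a median of 70.7 RPKM. This was a range of 4190-fold, the widest of the 10 genes. H19 exceeded 1000 RPKM in 5 tumors, glargine_62, glargine_47, IGF1_160, Untreated_186 and Untreated_189, and stayed below 10 RPKM in 13 tumors. Each group held tumors below 10 RPKM, between 2 and 3 of 10 in each. The median was 74.8 RPKM in vehicle (1.9 to 1060), 122 RPKM in insulin (1.16 to 537), 68.9 RPKM in glargine (4.66 to 4840), 34.7 RPKM in X10 (4.22 to 753) and 127 RPKM in IGF1 tumors (3.51 to 1150). The 5 groups overlapped over most of their range.

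Meg3 is the maternally read long RNA of the Dlk1 domain and is known for growth-restraining activity in cultured cells. Its level ran from 2.06 RPKM in Untreated_161 to 285 RPKM in IGF1_160, with a median of 41.5 RPKM. The group medians lay close together, at 42.3 RPKM in vehicle (2.06 to 181), 44.6 in insulin (20.9 to 169), 49.7 in glargine (11.9 to 282), 34.1 in X10 (16 to 113.4) and 39.6 in IGF1 tumors (17.2 to 285). In 7 of 50 tumors the level was above 100 RPKM, with 1 or 2 such tumors in every group.

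Mest encodes a protein of the alpha/beta hydrolase family and is read from the paternal copy. It had the narrowest range of the 10 genes, 12.9-fold, from 24.4 RPKM in Untreated_161 to 315 RPKM in glargine_62, with a median of 70.2 RPKM. Group medians were 81.8 RPKM in vehicle (24.4 to 232), 69.5 in insulin (43.8 to 179), 92.9 in glargine (32.8 to 315), 66.8 in X10 (30.5 to 101) and 64.3 in IGF1 tumors (35.1 to 191). Every tumor therefore had Mest above 20 RPKM, in contrast to H19.

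Plagl1 and Peg3 encode zinc finger proteins. Plagl1, a factor known to arrest cell division and to act on other imprinted genes, had a median of 6.69 RPKM and ran from 0.623 RPKM in Untreated_161 to 53.3 RPKM in Untreated_162, so both extremes were controls. Its group medians were 6.28 RPKM in vehicle (0.623 to 53.3), 7.99 in insulin (1.18 to 16.6), 6.81 in glargine (2.11 to 43.4), 6.83 in X10 (1.4 to 19.5) and 4.1 in IGF1 tumors (0.979 to 42.3). Levels above 20 RPKM occurred in 4 tumors, of which 2 were glargine, 1 vehicle and 1 IGF1.
Peg3 had a median of 2.41 RPKM, from 0.288 RPKM in IGF1_128 to 10.7 RPKM in IGF1_143. Its group medians were 2.23 RPKM in vehicle (0.837 to 10.6), 2.16 in insulin (1.54 to 5.45), 4.42 in glargine (0.847 to 9.63), 3.09 in X10 (0.931 to 9.86) and 1.5 in IGF1 tumors (0.288 to 10.7). The lowest and the highest Peg3 level thus came from the same group.

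Dlk1 encodes a membrane protein with EGF-like repeats that is known to hold back fat cell formation. It had a median of 1.76 RPKM and ran from 0.163 RPKM in Untreated_161 to 22.1 RPKM in glargine_69. The group medians were 1.32 RPKM in vehicle (0.163 to 7.03), 1.7 in insulin (1.13 to 3.52), 1.62 in glargine (0.736 to 22.1), 1.81 in X10 (0.581 to 3.35) and 3.63 in IGF1 tumors (1.69 to 5.19). The lowest IGF1 tumor was above the median of the vehicle group, and the ranges of the 2 groups overlapped.

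Cdkn1c encodes p57, an inhibitor of cyclin-dependent kinases, and is read from the maternal copy. It had a median of 2.03 RPKM and ran from 0.157 RPKM in Untreated_161 to 17.1 RPKM in glargine_47. The group medians were 1.92 RPKM in vehicle (0.157 to 13.7), 2.55 in insulin (1.33 to 9.39), 1.77 in glargine (0.628 to 17.1), 1.83 in X10 (0.465 to 5.65) and 3.88 in IGF1 tumors (0.591 to 16.7). Levels above 5 RPKM were found in 4 insulin, 4 IGF1, 3 vehicle, 1 glargine and 1 X10 tumor.
Ndn encodes necdin, a MAGE family protein of postmitotic cells. Its median was 3.29 RPKM, and it ran from 0.115 RPKM in Untreated_161 to 38.3 RPKM in IFG1_132. The group medians were 3.95 RPKM in vehicle (0.115 to 7.98), 3.5 in insulin (1.75 to 4.09), 3.87 in glargine (0.575 to 14.3), 2.68 in X10 (1.33 to 6.47) and 3.05 in IGF1 tumors (0.811 to 38.3). Only IFG1_132, IGF1_158 (31 RPKM) and glargine_53 (14.3 RPKM) were above 10 RPKM.

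Peg10, a gene derived from a retrotransposon and needed in the placenta, and Sgce, which encodes epsilon-sarcoglycan of the cell membrane, are the head-to-head pair. Peg10 had the lowest median of the 10 genes, 1.26 RPKM, with a range from 0.096 RPKM in IGF1_128 to 41.1 RPKM in Untreated_161. The group medians were 1.9 RPKM in vehicle (0.14 to 41.1), 1.82 in insulin (0.395 to 36.4), 0.73 in glargine (0.194 to 8.59), 0.632 in X10 (0.258 to 4.36) and 2.48 in IGF1 tumors (0.096 to 9.46). All 6 tumors above 10 RPKM were vehicle or insulin tumors, 3 of each.
Sgce had a median of 8.9 RPKM, from 1.63 RPKM in IGF1_128 to 148 RPKM in insulin_18. Its group medians were 10.8 RPKM in vehicle (2.9 to 27), 14.6 in insulin (5.06 to 148), 9.8 in glargine (1.85 to 20.2), 5.56 in X10 (3.62 to 27) and 17 in IGF1 tumors (1.63 to 45.6). The levels of different genes are compared per length of the gene model used for the table, which was not recovered for Peg10. The order of close medians such as those of H19 and Mest is therefore not firm.

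**Figure D1:**
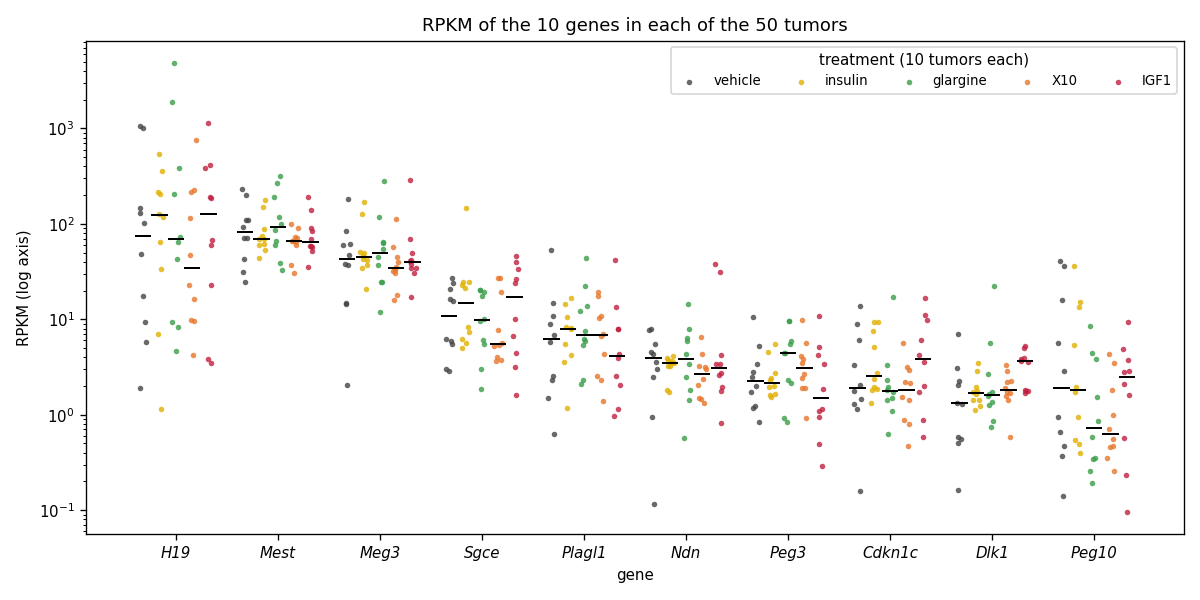
Each point is 1 tumor, placed by gene and treatment (10 tumors per group), with RPKM on a log axis and a black line at the group median. H19 spreads from 1.16 to 4840 RPKM and the 5 groups overlap for every gene.

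The spread between tumors was larger for these genes than for most others. The SD of log2(RPKM + 0.5) within treatment groups was 2.82 for H19, 1.63 for Peg10, 1.33 for Plagl1, 1.30 for Sgce, 1.18 for Meg3, 1.12 for Cdkn1c, 1.07 for Ndn, 0.93 for Peg3, 0.84 for Mest and 0.82 for Dlk1. The median of the 10 was 1.15, against 0.41 over all 16733 genes tested. For the SD over all 50 tumors, which was 2.73 for H19 and 0.83 for Mest, the highest and the lowest of the members, 99.9% of all tested genes had a smaller SD than H19 and 87.2% a smaller SD than Mest. The treatment group accounted for 2.0% of the variance of H19 and 13.2% of that of Dlk1, with a median of 6.1% over the members and 9.3% over all tested genes. These are descriptions without a test, and the genes of a tumor are not independent of each other.

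**Figure D2:**
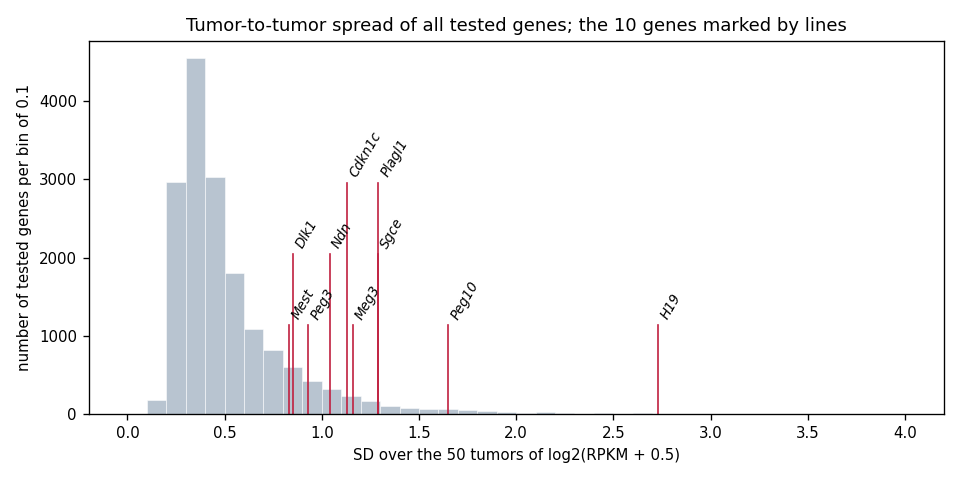
Bars give the number of tested genes per bin of the SD of log2(RPKM + 0.5) over the 50 tumors, and red lines mark the 10 genes. All 10 lie to the right of the bulk of genes, whose median is 0.42, and H19 lies farthest right at 2.73.

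Treatment was compared with limma on log2(RPKM + 0.5) across all 16733 genes, with Benjamini-Hochberg adjustment over all of them. No member passed an adjusted p of 0.05 in any of the 8 comparisons, and the share of all genes that passed was itself small. The differences are on the log2(RPKM + 0.5) scale, which understates the change of genes near the pseudocount, such as Peg10 and Dlk1. The p-values reflect the spread between tumors of a group.

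In IGF1 versus vehicle tumors 0 of 10 members were called, as were 0.00598% of all genes. Dlk1 was the only member with an unadjusted p below 0.05. It was higher by 0.91 ± 0.36 (SE) on the log2 scale, a fold of 1.88 with a 95% confidence interval of 0.19 to 1.63 in log2 units, and its adjusted p by limma was 0.426 (p = 0.0144 unadjusted). An unadjusted p below 0.05 was reached by 8.84% of all genes, so 1 of 10 members is near the background. Without Untreated_161 the difference was 0.75, with a limma p of 0.0422 and an adjusted p of 0.647.

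In X10 versus vehicle tumors 0 of 10 members were called, against 0.0657% of all genes. The member with the smallest p was Peg10, with a difference of -1.32 log2 units (95% interval -2.73 to 0.10, limma adjusted p = 0.489). Its interval spans a fall of more than 2 log2 units and no change. Without Untreated_161, which has the highest Peg10 level, the difference was -0.93 with an adjusted p of 0.674.

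In insulin versus vehicle tumors 0 of 10 members were called, and the share of all genes called was 0%. The count of genes at an unadjusted p below 0.05 was 1865, and none of them was a member. Meg3 had the smallest p, with a difference of 0.58 log2 units and an interval of -0.45 to 1.61 (limma adjusted p = 0.706). The difference fell to 0.17 without Untreated_161.
In glargine versus vehicle tumors 0 of 10 members and 0% of all genes were called, with 1043 genes at an unadjusted p below 0.05. Dlk1 had the smallest p, with a difference of 0.56 log2 units (adjusted p = 0.827 by limma), which was 0.22 without glargine_69, the tumor with the highest Dlk1 level. Peg10 had the same rounded p, with a difference of -1.10 log2 units and an interval of -2.52 to 0.31.

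The insulin analogues were also compared with insulin itself. In glargine versus insulin tumors 0 of 10 members and 0% of all genes were called, with 663 genes at an unadjusted p below 0.05, and Peg10 had the smallest p (-1.06 log2 units, limma adjusted p = 0.99). That difference was -0.68 without insulin_13, the insulin tumor with the most Peg10. In X10 versus insulin tumors 0 of 10 members were called, against 0.102% of all genes, and Peg10 again had the smallest p (-1.27 log2 units, limma adjusted p = 0.503). The intervals for all 10 members are wide, so these values do not show that the compounds act alike on these genes.
The 20 tumors of the X10 and IGF1 groups, ligands pooled for their signaling through the IGF1 receptor, were set against the 30 tumors of the other 3 groups. Again 0 of 10 members were called, against 0.155% of all genes. Dlk1 had the smallest p, with a difference of 0.33 log2 units (limma adjusted p = 0.684), which was 0.45 without glargine_69 (adjusted p = 0.399). In the test for a difference between any of the 5 groups, 0 of 10 members and 0.102% of all genes were called, and Dlk1 had the smallest p (F = 1.79, limma adjusted p = 0.539). For each of the 10 genes, therefore, the order of the 5 group levels is not resolved beyond the spread between tumors.

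**Figure D3:**
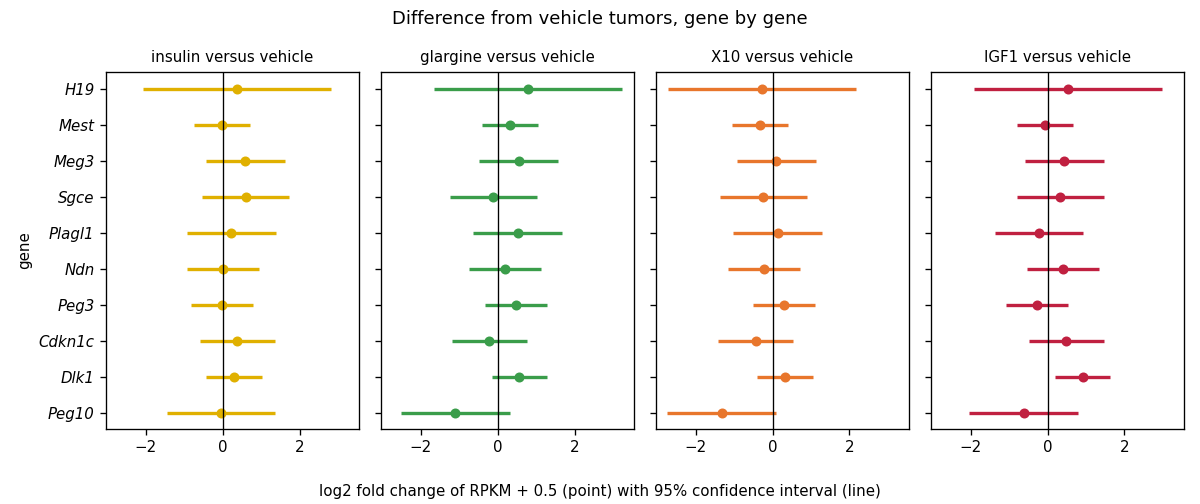
Points give the log2 difference in RPKM + 0.5 between each treatment and vehicle (10 tumors per group) and lines its 95% confidence interval, with 1 panel per treatment and 1 line per gene. All intervals cross 0 except that of Dlk1 in IGF1 tumors (0.19 to 1.63), whose adjusted p is 0.426, and the H19 intervals are the widest.

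Some members varied together over the tumors. Across the 50 tumors, 5 of the 45 pairs of members had a correlation that passed an adjusted p of 0.05 by Pearson's r and 4 by Spearman's rho, all positive, and 4 pairs passed by both. The tests were two-sided permutation tests with 100000 resamples, whose smallest p is 1e-05, adjusted within each family of relations. Runs with a single tumor left out used 20000 resamples. The smallest r that passed was 0.443, and 11.1% of the 45 pairs reached it, beside 4.62% of all pairs of the tested genes. The median r was 0.21 over the 45 pairs and 0.02 over all pairs. These shares are descriptions without a test, since all pairs rest on the same 50 tumors.

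**Figure D4:**
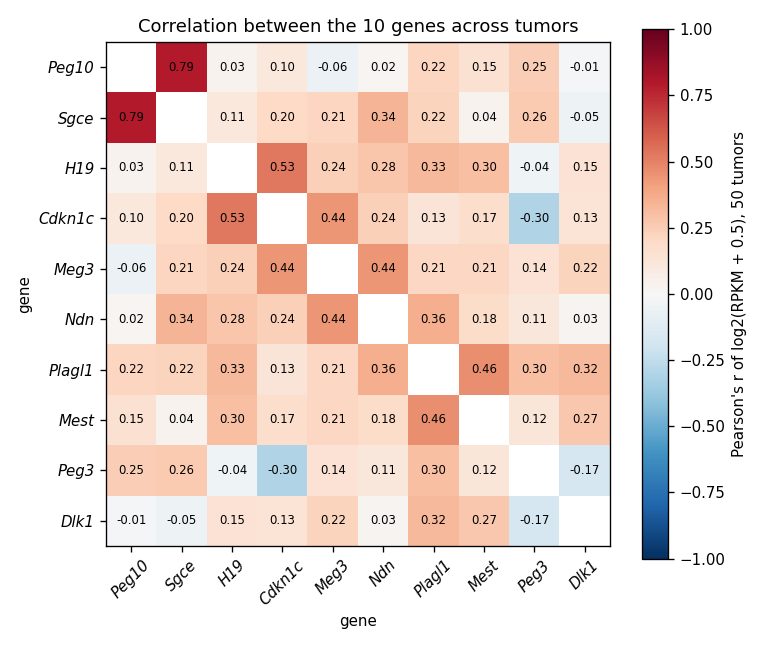
Each cell gives Pearson's r of log2(RPKM + 0.5) between 2 of the 10 genes over the 50 tumors, red for positive and blue for negative. Peg10 and Sgce form the strongest pair at 0.79 and most other cells lie below 0.35.

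Peg10 and Sgce, whose starts lie 99 bases apart, formed the closest pair. Their r was 0.79 and rho 0.83 (permutation test, adjusted p = 0.00045 for r and 0.000225 for rho), and r was 0.83 without Untreated_161 and insulin_13, the tumors farthest from the median of Peg10. Within the 5 treatment groups r was between 0.80 and 0.93. For each of these 2 genes the other was the most similar of all tested genes by Spearman's rho, and the next gene was Gemin6 at 0.50 for Peg10 and Wtip at 0.54 for Sgce. The pair was not in a fixed proportion. The log2 ratio of Sgce to Peg10 had a median of 2.31, and ran from -0.98 in Untreated_161 to 3.58 in X10_95. Tumor insulin_18, with the highest Sgce level of 148 RPKM, had 15.1 RPKM of Peg10, and 5 of the 10 tumors with the most Peg10 were also among the 10 with the most Sgce. The next genes of the domain did not follow. Peg10 with Ppp1r9a gave r = 0.14 (permutation test, adjusted p = 0.55), and Sgce with Casd1 gave r = 0.16 (adjusted p = 0.507), which was 0.34 without IGF1_147 (adjusted p = 0.0373).

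Meg3 went with the other non-coding RNAs of its domain. Rian hosts small nucleolar RNAs and Mirg hosts microRNAs, and both lie downstream of Meg3 on the same strand (chr12:109603940-109661716 and chr12:109729764-109749460). The r of Meg3 was 0.90 with Mirg and 0.83 with Rian, with rho of 0.86 and 0.72 (permutation test, adjusted p = 3.67e-05 for each). Without Untreated_161 and IGF1_160 the r was 0.88 and 0.84. Within groups r ran from 0.85 to 0.94 for Mirg, and for Rian from 0.41 in IGF1 to 0.98 in insulin tumors. Mirg was the gene most like Meg3 of all tested genes, followed by Dio3os of the same domain (rho = 0.75) and Gpx3, a secreted glutathione peroxidase (rho = 0.74). In the 2 tumors with the most Meg3, the 3 RNAs did not rise in step. IGF1_160 had 285 RPKM of Meg3, 4.13 of Mirg and 28.7 of Rian, and glargine_47 had 282 of Meg3, 4.86 of Mirg and 68.3 of Rian. Untreated_162 had less Meg3, at 181 RPKM, but the most Rian (192 RPKM) and Mirg (5.97 RPKM) of all tumors. The median of Rian over all tumors was 35.4 RPKM and that of Mirg 1.21 RPKM, so IGF1_160 was below the median for Rian.
The paternally read neighbor Dlk1 did not go with Meg3 over all tumors, with r = 0.22 and rho = 0.07 (permutation test, adjusted p = 0.258 and 0.762). The value turned on single tumors in both directions. Without Untreated_161, the lowest tumor for both genes, r was 0.07 (adjusted p = 0.862). Without glargine_69, which had the most Dlk1 (22.1 RPKM) and the second lowest Meg3 (11.9 RPKM), r was 0.42 (adjusted p = 0.00561). The genes most like Dlk1 were Tmem150c (rho = 0.58), Pgrmc2 (0.55) and the erythropoietin receptor gene Epor (0.53).

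On distal chromosome 7, H19 went with Cdkn1c and not with its direct neighbor Igf2. H19 and Cdkn1c, both maternally read and under separate control regions, had r = 0.53 and rho = 0.53 (permutation test, adjusted p = 0.00292 and 0.003 over the 45 pairs), and r was 0.60 without glargine_62 and insulin_26. Within groups r ran from 0.32 in IGF1 to 0.91 in vehicle tumors. H19 and Igf2, read from opposite parental copies and known to share enhancers, had r = -0.08 and rho = -0.01 (permutation test, adjusted p = 0.682 and 0.933), and r was -0.25 without the same 2 tumors. Within groups r ran from -0.66 in IGF1 to 0.21 in vehicle tumors, a difference that was not tested. Igf2 itself ran from 0.355 to 4310 RPKM with a median of 7.3 RPKM. The pair occurred in every combination. Tumor glargine_62 had both, at 4840 RPKM of H19 and 3230 of Igf2, glargine_47 had 1897 of H19 and 1.85 of Igf2, and Untreated_161 had 1.9 of H19 and 541 of Igf2. Tumor glargine_69 had little of either, at 4.66 and 0.866 RPKM. Cdkn1c and Phlda2, its neighbor, had r = -0.06 (adjusted p = 0.7). Nearest to H19 by rho were Cenpv (0.67), Bckdk (0.61) and the predicted gene Gm15596 (0.60), and nearest to Cdkn1c were Vimp (0.56), the ribosomal protein gene Rps3 (0.54) and the transcriptional repressor gene Hic1 (0.53).

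**Figure D5:**
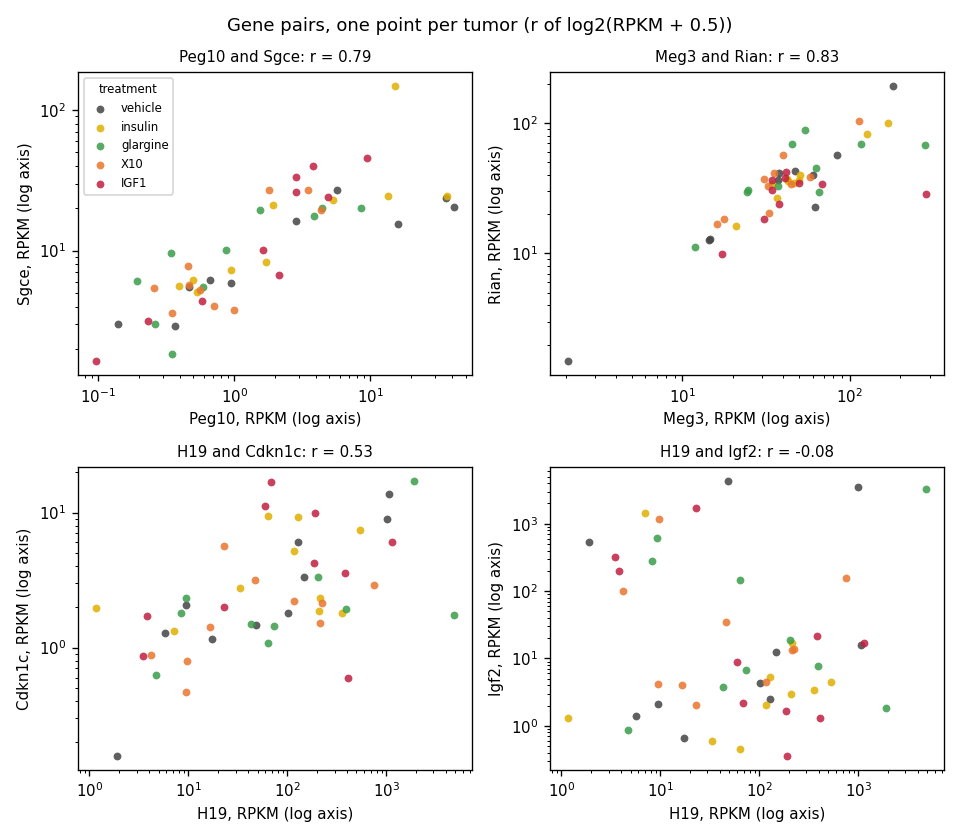
Each point is 1 tumor, colored by treatment, with RPKM on log axes for Peg10 and Sgce, Meg3 and Rian, H19 and Cdkn1c, and H19 and Igf2. The first 2 pairs follow a line (r = 0.79 and 0.83), H19 and Cdkn1c follow it loosely (r = 0.53), and H19 and Igf2 fill the plane (r = -0.08).

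The other 3 pairs that passed by r join genes on different chromosomes. Mest and Plagl1 had r = 0.46 and rho = 0.45 (permutation test, adjusted p = 0.00855 and 0.0124), and r of 0.49 without glargine_62 and glargine_67. Within groups their r ran from -0.21 in X10 to 0.90 in vehicle tumors. Meg3 and Ndn had r = 0.44 and rho = 0.60 (permutation test, adjusted p = 0.0175 and 0.000225), but r was 0.32 without Untreated_161 (adjusted p = 0.141) and 0.33 without both Untreated_161 and IGF1_160, the tumors farthest from the median of Meg3 (adjusted p = 0.159). It was 0.59 without IFG1_132, the tumor with the most Ndn (adjusted p = 0.00112), and within groups it ran from -0.21 in IGF1 to 0.82 in vehicle tumors. Meg3 and Cdkn1c had r = 0.44 (adjusted p = 0.0135) and rho = 0.35 (adjusted p = 0.0822), and r was 0.34 without the same 2 tumors (adjusted p = 0.159). It was 0.36 without Untreated_161 alone (adjusted p = 0.0862) and 0.38 without glargine_47 alone (adjusted p = 0.0738). The lowest of all 45 pairs was Peg3 and Cdkn1c, far apart on chromosome 7, at r = -0.30 (adjusted p = 0.13).
Of 17 listed pairs of a member and a gene of its own domain, 11 could be tested, and 4 passed, namely Meg3 with Mirg and Rian, Peg10 with Sgce, and H19 with Cdkn1c. Mest and Copg2, which overlap on opposite strands, had r = -0.07 (adjusted p = 0.682), and Ndn and Snrpn had r = 0.10 (adjusted p = 0.682).
The genes most like the remaining members were Hmgb1-ps7, Gm15387 and Sfxn5 for Mest (rho of 0.65, 0.61 and 0.59), Cand2, Pex19 and the matrix protein gene Aspn for Plagl1 (0.72, 0.69 and 0.65), and Nbea, Cep170 and the glutamate receptor gene Gria3 for Peg3 (0.60 each). For Ndn they were Gpx3, Lrp3 and Fxyd1 (0.75, 0.74 and 0.74). These are the highest of 16733 values per gene and carry no test.

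Levels in whole tumor pieces can move with the mix of cells, so each member was set beside 8 marker scores, a score being the mean z-score of the markers of a list. By Pearson's r 6 of 80 relations passed, by rho 3, and 2 by both. The smallest r that passed was 0.408. This size was reached in either direction by 7.5% of the relations of the members and by 7.21% of those of all tested genes with the same 8 scores, so the count is near the background. Meg3 went with the mesenchymal score, made of collagens and other stromal genes (r = 0.52, rho = 0.45, permutation test, adjusted p = 0.0088 and 0.0312). Ndn went with the adipocyte score (r = 0.41, rho = 0.54, adjusted p = 0.0432 and 0.004). The others that passed by r were Mest with the proliferation score (r = 0.47, adjusted p = 0.02), Plagl1 with the mesenchymal (r = 0.47, adjusted p = 0.02) and adipocyte scores (r = 0.41, adjusted p = 0.0432) and Peg3 with the mesenchymal score (r = 0.41, adjusted p = 0.0432). The other one that passed by rho was Ndn with the mesenchymal score (rho = 0.47, adjusted p = 0.0312). Several of these calls were close to the threshold. With each of the 50 tumors left out in turn, the r call was lost 18 times for Ndn and the adipocyte score, 23 times for Peg3 and the mesenchymal score, 17 times for Plagl1 and the adipocyte score, 3 times for Plagl1 and the mesenchymal score, and 1 time each for Mest and the proliferation score and Meg3 and the mesenchymal score. These runs used 20000 resamples, and a lost call does not always mean a lower r. Peg3 and the mesenchymal score had r = 0.417 without X10_100 (permutation test, adjusted p = 0.056), against 0.408 with all tumors. Without Untreated_161, the tumor with the lowest mesenchymal score and the lowest leukocyte score, 0 of 80 relations passed, and r was 0.42 for Meg3 and the mesenchymal score (adjusted p = 0.0733) and 0.38 for Ndn and the adipocyte score (adjusted p = 0.088).
For the other members the list with the largest rho, given with its adjusted p, was skeletal muscle for H19 (rho = 0.38, adjusted p = 0.0941 by permutation test), mesenchymal for Peg3 (0.41, 0.0587), Plagl1 (0.37, 0.102) and Cdkn1c (0.32, 0.17), proliferation for Mest (0.41, 0.0587), leukocyte for Peg10 (-0.30, 0.201) and epithelial for Sgce (-0.26, 0.28) and Dlk1 (-0.20, 0.399). The part of cell mix in the levels was not tested further. The summed skeletal muscle markers ran from 6.04 to 4990 RPKM, the muscle progenitor markers, of which 4 of 9 could be tested, from 2.67 to 635 RPKM, and the adipocyte markers from 18.1 to 645 RPKM. The endothelial markers ran from 86.9 to 231 RPKM, the leukocyte markers from 700 to 4090 RPKM and the proliferation markers from 282 to 1140 RPKM.

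The rest of the imprinted genes gave a similar picture for treatment. Of 58 further imprinted genes listed, 55 were in the table and 37 passed the filter on low values, and 0 of the 37 were called in any of the 8 comparisons by limma. At an unadjusted p below 0.05 there were 3 of 37 in each comparison with vehicle, where the share over all genes was 11.1% with insulin, 11% with X10, 8.84% with IGF1 and 6.23% with glargine. There were 2 in each comparison with insulin (3.96% of all genes for glargine and 11.3% for X10), 1 in the pooled comparison (10.5%) and 1 in the test of any difference (13.1%). Their median difference from vehicle was 0.01 log2 units in insulin, 0.19 in glargine, -0.03 in X10 and 0.09 in IGF1 tumors, beside 0.26, 0.40, -0.23 and 0.37 for the 10 members and 0.03, 0.02, -0.03 and 0.02 for all tested genes. These medians carry no test, and the members vary more than most genes (median SD within groups 1.15 against 0.41). The vehicle group holds Untreated_161, the lowest tumor for 6 of the 10 members. Without it the Meg3 difference in insulin tumors was 0.17 in place of 0.58, and that of Dlk1 in glargine tumors 0.40 in place of 0.56. The most abundant of the 37 genes were Gnas, which encodes a G protein subunit (median 567.3 RPKM, 410.8 to 839), the IGF2 clearance receptor gene Igf2r (230.7 RPKM, 89.5 to 504.5), the tetraspanin gene Cd81 (206.3 RPKM, 132.5 to 313), H13 (112.6 RPKM, 77.5 to 212.8) and Blcap (92.6 RPKM, 56.6 to 155.9). Their SD over tumors was 0.21 for Gnas, 0.51 for Igf2r, 0.28 for Cd81, 0.30 for H13 and 0.32 for Blcap on the log2 scale, all lower than the 0.83 of Mest, the lowest of the members. Other genes of the list varied as widely as the members, with an SD of 3.58 for Igf2, 2.21 for Nnat, 1.2 for Phlda2 and 1.15 for Grb10, of which Nnat and Grb10 were chosen after their values were seen. The median SD over the 37 genes was 0.67.

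The tumors that stood high differed from gene to gene. Untreated_162 was among the 5 highest tumors for 6 of the 10 members, and glargine_47 and IGF1_158 for 5 each. IGF1_128 was the lowest of all for Peg3, Peg10 and Sgce, yet had 9.84 RPKM of Cdkn1c, one of the 5 highest values. IFG1_132 had the most Ndn, 38.3 RPKM, and 0.591 RPKM of Cdkn1c, the lowest of its group. Untreated_161 was the lowest for Dlk1, Meg3, Mest, Plagl1, Cdkn1c and Ndn, with 20.6 RPKM of Sgce beside its 41.1 RPKM of Peg10.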

How the data were processed

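Poly(A)-selected RNA from 50 tumors was made into libraries (Ion Total RNA-Seq v2 chemistry) and sequenced on the Ion Proton. The authors aligned reads to GRCm38 with TopHat2 2.0.10 and Bowtie2, counted them with HTSeq 0.6.1 under default options and deposited 1 table of RPKM values per gene and tumor. RPKM divides reads by library size and gene length, so a gene's level depends on the length used. Their comparisons with DESeq2 1.2.10 used counts, which were not analysed here. Library sizes and, for 94.7% of the 16733 tested genes, reads were recovered from the steps of the RPKM values.

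Genes with a mean of at least 0.5 RPKM were tested with limma 3.58.1 (R 4.3.3) on log2(RPKM + 0.5), with all 5 groups in the fit, an intensity trend and Benjamini-Hochberg adjustment over all tested genes. On simulated data for X10 versus vehicle, with 16733 genes, 80% of genes changed by 1 log2 unit and 92% of those changed by 2 log2 units were found, with 4 false calls. These rates are over genes of all spreads and do not hold for the members, whose spread is mostly larger. Correlations used Pearson's r and Spearman's rho with 100000 permutations, or 20000 where a single tumor was left out (scipy 1.17.1). Groups came from the sample titles. The tumor titled IFG1_132 was placed in the IGF1 group. The members and the lists of other imprinted genes, domain pairs and markers were chosen with earlier results of these data known. Levels are given for all members, and fold changes for the members with an unadjusted p below 0.05 in a comparison or otherwise for the member with the smallest p. Pairs named are the listed domain pairs, the 3 other pairs with the highest r and the lowest, and the genes most alike are the 3 with the highest rho. Other imprinted genes named are those in pairs and the 5 with the highest median, besides Nnat and Grb10. Alternatives covered the pseudocount, filter, scaling, covariates, model and each tumor left out. Single tumors, Nnat and Grb10 were named after their values were seen.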

Additional observations from a re-analysis of the deposited data

Results flagged for a closer look

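In 3 of 50 combinations of a member and a treatment group, 1 tumor lay farther from the other 9 than Dixon's 95% limit for 10 values, on the log2(RPKM + 0.5) scale, and chance alone gives about 1 such value in 20 groups. Meg3 was 285 RPKM in IGF1_160, and the next tumor of that group had 68.6 RPKM. Cdkn1c was 17.1 RPKM in glargine_47, and the next tumor had 3.33 RPKM. Sgce was 148 RPKM in insulin_18, and the next tumor had 24.5 RPKM.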

How the results depend on the processing

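No member was called in any of the 8 treatment comparisons under any alternative tried, among them other pseudocounts, filters and scalings, marker scores or library size as covariates, voom on recovered reads and each tumor left out in turn. A mean filter of 5 RPKM leaves out Dlk1, Peg3, Cdkn1c, Peg10 and Ndn, and voom leaves out Peg10, whose reads were not recovered. Fitting the compared groups alone does not apply to the pooled comparison and to the test of any difference. The log2 difference of Dlk1 in IGF1 tumors ran from 0.72 to 1.35 over the alternatives, with adjusted p from 0.258 to 0.936.

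The 5 pairs of members that passed became 3 without the 2 tumors farthest from the median. The 6 relations with marker scores became 3 with a pseudocount of 1 and 3 with quantile normalization, and ran from 0 to 10 with single tumors left out. The count was 0 without Untreated_161, 10 without IFG1_132, 2 without glargine_64 or IGF1_128, and 3 without insulin_15, insulin_21 or insulin_26, glargine_67, glargine_73 or glargine_78, X10_100 or X10_105, or Untreated_162 or Untreated_195. The r of Cdkn1c and Phlda2 changed sign to 0.000985 when values were centered within treatment groups. The cause of these changes was not tested. No paired analysis was possible because each tumor number occurs in 1 group only.

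Cdkn1c and Dlk1 rest on fewer than 200 reads in the median tumor, and H19 on 2711. In IGF1 versus vehicle tumors the SE was 0.359 log2 units for Dlk1, the smallest of the members, and 1.217 for H19, the largest. The part of depth in the intervals was not tested. Wide intervals, such as -1.92 to 2.98 log2 units for H19 in IGF1 versus vehicle tumors, leave room for large differences in either direction. Dose, tumor latency and age at collection are not in the labels, so latency and treatment cannot be told apart.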
